A study of Mus musculus with 18 samples.

Results

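RNA labelled as from sorted CD4+ T helper cells was compared with RNA labelled as from dendritic cells. Both came from MC38 tumours after anti-PD-1 together with D18. Members were chosen by their labels: the 3 libraries of the CD4 T sort and the 3 of the dendritic sort with both agents, 6 of the 18 in the series. MC38 is a mouse colon carcinoma line, grown here under the skin of female C57BL/6 mice injected at 6 weeks of age. Anti-PD-1 (200 µg per mouse) blocks the inhibitory receptor encoded by Pdcd1, and D18 (25 µg per mouse) is known here only by its code name. Treatment lasted 2 weeks, starting when tumours averaged 100 mm3. All 6 libraries carry both agents, so what separates them by label is the sorted cell type. The 3 libraries of the CD8 T sort with D18 received the same agents, and the 3 CD4 T and 3 dendritic libraries with anti-PD-1 alone lacked D18; both sets were used for side comparisons. Per the labels, mice were pooled before they were divided into treatment groups, and the antibodies of the sort are not given in the sources used here. The labels do not tie the replicates to separate mice; each p-value measures only how far these libraries spread, which may be technical.

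A helper T cell recognises peptides held by MHC class II molecules through its T cell receptor, whose signal is carried into the cell by the CD3 chains and the kinases Lck and Zap70. Full activation needs costimulation through receptors such as CD28, ICOS, OX40 and 4-1BB. Dendritic cells display peptides on MHC class II (the alpha and beta chains of H2-A and H2-E, loaded with the help of the invariant chain Cd74 and H2-DM) and carry the ligands of those receptors. Tumours also hold macrophages, which share MHC class II and many surface proteins with dendritic cells.

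The libraries were shallow. In replicate order, gene-assigned reads numbered 59505, 31156 and 137295 in the CD4 T sort and 190641, 11170 and 169296 in the dendritic sort. Where a gene has 0 reads, up to 3 remain possible by counting error alone: 15.7 CPM (reads scaled to a library total of 1000000) in dendritic replicate 1 but 269 CPM in dendritic replicate 2. Mitochondrial transcripts took 26.2%, 2.85% and 22.1% of the reads in the CD4 T libraries and 32.5%, 14.4% and 19.3% in the dendritic ones.

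3 of the 6 libraries stood apart. The pair numbered 3, 1 labelled CD4 T and 1 labelled dendritic, held nearly the same mixture of transcripts. Over 2046 nuclear genes with at least 20 reads in the pair, the chi-square statistic between them was 1.12 per degree of freedom, where 1 is what random sampling of reads from a single mixture gives. Among the other 14 pairs of the 6 libraries it ran from 6.11 to 33.7, and between replicates of the same sort from 6.88 to 10.0. The library numbered 3 of the CD8 T sort was close to both, at 1.60 and 1.74. The 2 columns of the compared sorts were not identical: Isg20 had 40 reads in the library labelled CD4 T and 12 in that labelled dendritic, and Tap2 had 3 and 25. Dendritic replicate 2, the shallowest library, correlated with the 8 other libraries with D18 at r of 0.34 to 0.47 (Pearson, log2 of CPM plus 50, across nuclear genes, which are not independent replicates), compared with 0.69 to 0.95 among those 8, and it is 1 of the 2 dendritic libraries left once those numbered 3 are omitted. The main counts and most list medians are therefore given with all 6 libraries, without both numbered 3, and without dendritic replicate 2.

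**Figure D1:**
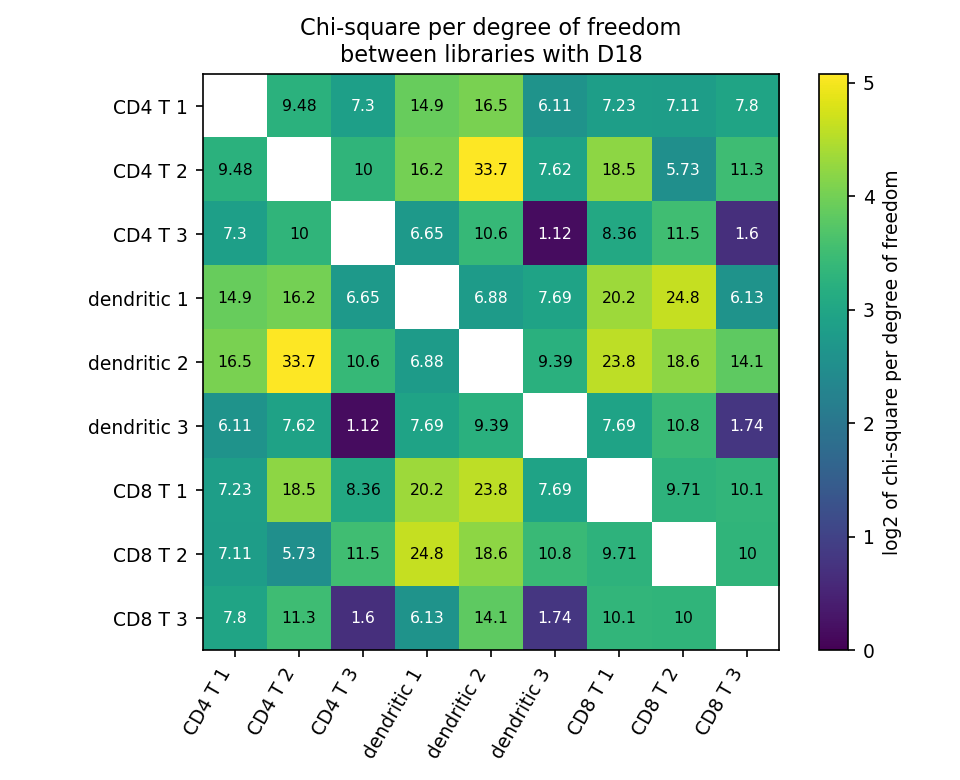
Each cell gives the chi-square statistic per degree of freedom between a pair of the 9 libraries with D18, over nuclear genes with at least 20 reads in the pair; the colour is its log2. The 3 pairs of libraries numbered 3 lie between 1.12 and 1.74, and the other 33 pairs between 5.73 and 33.7.

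T cell markers followed the labels in replicates 1 and 2, whereas antigen-presenting and myeloid markers did so in replicate 1 and were mixed in replicate 2. Cd3e, a CD3 chain (chr9:44998740-45009627, mm10, minus strand), had 23, 10 and 41 reads in the CD4 T libraries and 0, 0 and 69 in the dendritic libraries. Icos, the inducible costimulator (chr1:60977927-61000320, plus strand), had 59, 48 and 25 against 0, 0 and 43. H2-Aa, the alpha chain of the class II molecule H2-A (chr17:34282744-34287823, minus strand), had 10, 16 and 241 against 391, 11 and 289. In replicates 1 and 2 the dendritic sort held no read of Cd3e or Icos, and in the libraries numbered 3 all 3 genes were present under both labels. Cd4 had 16, 10 and 2 reads against 0, 0 and 5. Reads of Cd8a, a co-receptor chain of cytotoxic T cells, numbered 0, 0 and 83 against 3, 0 and 87, and Cd8b1 had 0, 0 and 90 against 8, 0 and 107. Within the CD4 T sort, the library numbered 3 was thus the one with reads of both CD8 chains and the one with the fewest of Cd4. In replicate 2 the dendritic library lay above the CD4 T one for H2-Aa (985 against 514 CPM) but below it for Cd74 (716 against 1027 CPM) and Lyz2 (2238 against 3755 CPM).

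**Figure D2:**
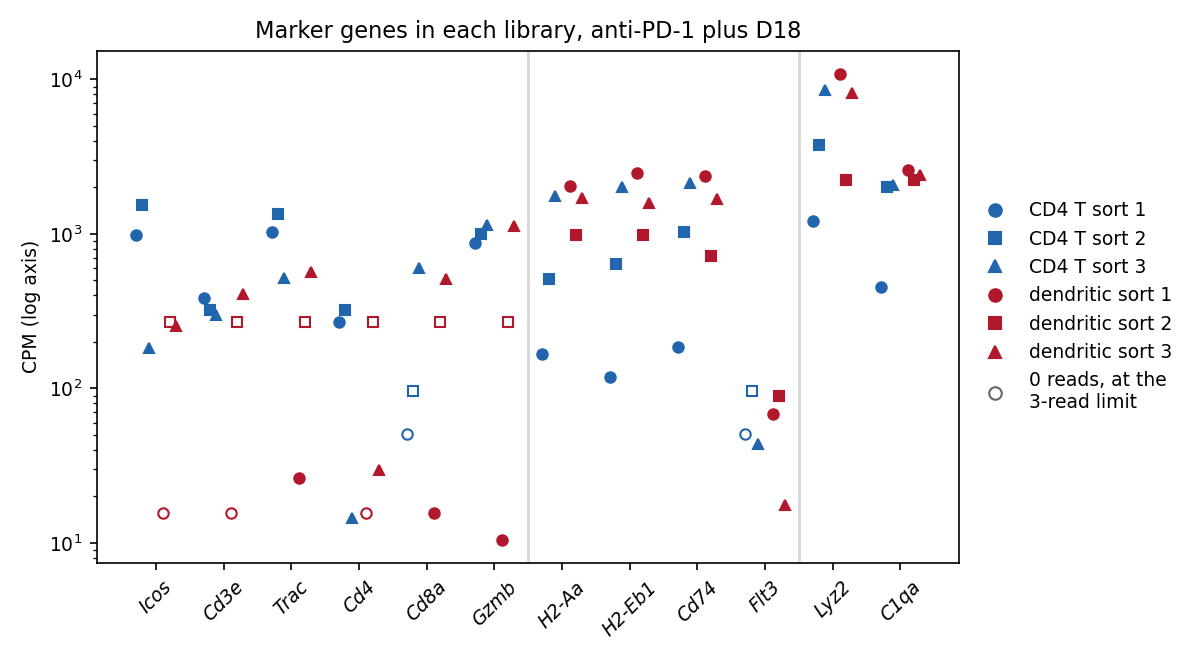
CPM (log axis) of 12 marker genes in each of the 6 libraries, blue for the CD4 T sort and red for the dendritic sort, with 1 symbol shape per replicate; open symbols stand at the 3-read limit of a library without a read. Icos and Cd3e have reads in all 3 CD4 T libraries and in dendritic replicate 3 alone among the dendritic libraries, and the triangles of both sorts lie close together throughout.

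Defining markers of dendritic cells were sparse. Flt3, the receptor of the dendritic cell growth factor, had 0, 0 and 6 reads in the CD4 T libraries and 13, 1 and 3 in the dendritic ones. Clec9a, a receptor of cross-presenting dendritic cells, had 0, 0 and 3 against 9, 0 and 5. Zbtb46, a transcription factor of classical dendritic cells, had 0, 0 and 2 against 2, 0 and 2, and Xcr1 had 0, 0 and 1 against 0, 0 and 2. These markers were at or near 0 reads in dendritic replicate 2, whose depth cannot show that they were absent. Its 3-read limit of 269 CPM lies above Flt3 (68.2 CPM), Clec9a (47.2 CPM) and Zbtb46 (10.5 CPM) in dendritic replicate 1. The 1 read of Flt3 in dendritic replicate 2 is 89.5 CPM. Macrophage transcripts were present in every library: Lyz2, the myeloid lysozyme, had 72, 117 and 1172 reads against 2068, 25 and 1390. The 34 listed monocyte and macrophage genes summed to 9610, 29400 and 32600 CPM in the CD4 T sort and to 39200, 15800 and 33600 CPM in the dendritic sort. Their part in the differences below was not tested. In such bulk samples, fewer cells of a type and less RNA per cell cannot be told apart.

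No gene passed the planned test. Of 760 genes with a mean of at least 10 normalised reads, 0 (0%) had an adjusted p under 0.05 with limma (Benjamini-Hochberg over all genes tested), and the smallest adjusted p was 0.761. At an unadjusted p under 0.05 limma gave 24 genes at a higher level in the CD4 T sort and 8 at a higher level in the dendritic sort, and limma-voom gave 0 calls and 8 such genes. The log2 difference, CD4 T minus dendritic throughout, had a median of 0.48 over all 760 genes (486 above 0 and 274 below) and of 0.03 with limma-voom or with quantile normalisation. Normalised reads of all 3 CD4 T libraries lay above all 3 dendritic ones for 55 genes (7.24%), and below for 8 (1.05%). Without both libraries numbered 3, 465 genes were tested. Limma called 0 (0%) of them, with a smallest adjusted p of 0.0867 and 51 genes at an unadjusted p under 0.05, and limma-voom called 7 (1.51%). Without dendritic replicate 2, limma called 0, with 25 genes at an unadjusted p under 0.05, and the median over all genes tested was -0.26.

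Genes of the T cell receptor complex were high in the CD4 T sort, and had few or no reads in dendritic replicates 1 and 2. In dendritic replicate 2, with its 3-read limit of 269 CPM, absence of single genes is not shown. Cd3g and Trbc2 stood at 225 and 257 CPM in CD4 T replicate 2, below that limit. The 14 listed genes summed to 5710, 5360 and 4550 CPM in the CD4 T libraries and to 178, 179 and 5190 CPM in the dendritic ones, so the library labelled dendritic and numbered 3 lay within the CD4 T range. Of 10 members tested, 8 had a difference above 0 and 2 (Cd8a and Cd8b1) below, with a median of 3.02. That compares with 0.48 over all genes tested, and 0 of the 10 passed the limma test. The median was 1.59 with limma-voom and 1.76 with quantile normalisation (0.03 over all genes tested in both), and 2.23 without dendritic replicate 2 (-0.26 over all genes). The list medians below are to be read against the same values. The filter averaged over both sorts, so a member near 0 in a sort could be tested only through reads of the other. Counts of members above or below 0 therefore describe the tested genes and are no support on their own. Without both libraries numbered 3, 5 members were tested, 5 lay above 0, and the median was 4.39, against 0.58 over all genes tested there.

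Trac, the constant region of the receptor alpha chain, had 61, 42 and 71 reads against 5, 0 and 96. Its log2 difference was 3.55 ± 1.19 (SE; limma adjusted p = 0.761), and 4.98 ± 1.64 without the libraries numbered 3 (limma adjusted p = 0.138). The groups overlapped only through dendritic replicate 3. Cd3g had 50, 7 and 73 reads against 0, 0 and 130, and Trbc2, a constant region of the beta chain, had 47, 8 and 63 against 0, 0 and 72; reads of Trbc2 and its near-identical copy Trbc1 could be split between the copies by the counting. Cd2, an adhesion receptor of lymphocytes, had 44, 31 and 46 against 17, 0 and 85. Adding the reads of replicates 1 and 2 gave 90661 reads for the CD4 T sort and 201811 for the dendritic sort, 94.5% of the latter from replicate 1. This compares 2 pools of reads, not the conditions, and its intervals cover counting error only. Against 3 reads in the dendritic pool, Cd3g was at least 42.3-fold higher in the CD4 T pool, Cd3e at least 24.5-fold and Cd4 at least 19.3-fold.

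**Figure D3:**
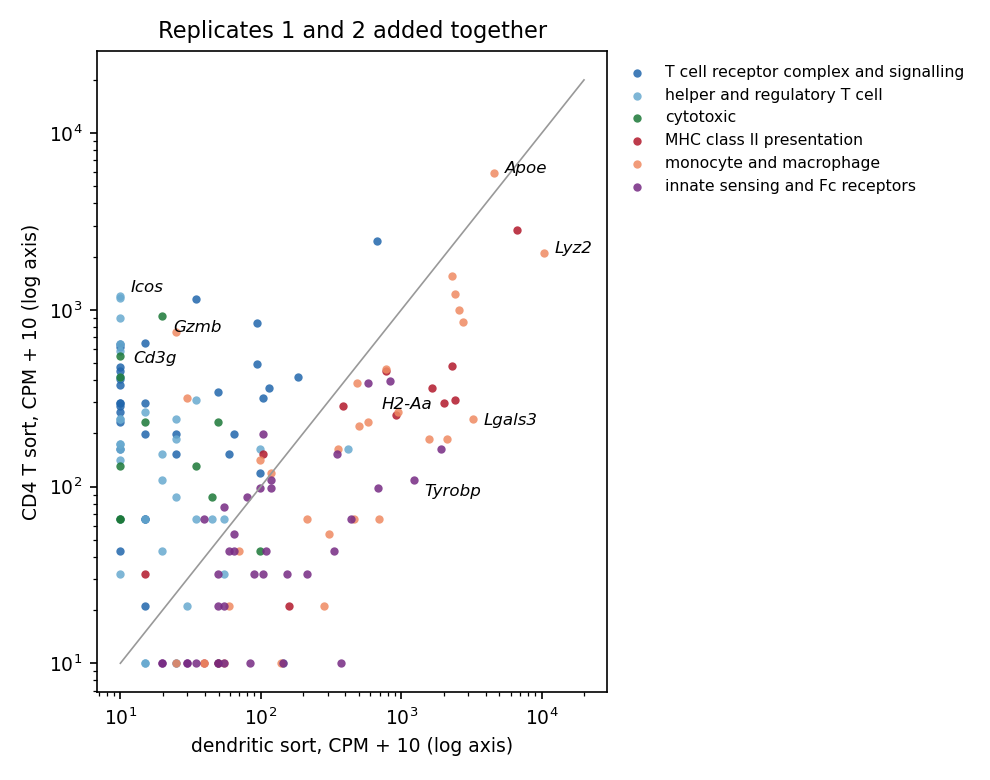
CPM plus 10 (log axes) of the listed genes after adding replicates 1 and 2 of each sort, the dendritic sort on the horizontal and the CD4 T sort on the vertical axis, coloured by gene list; the line marks equal levels. Many genes of the T cell lists stand at the left edge, where the dendritic pool has no read, and MHC class II, macrophage and Fc receptor genes lie mostly below the line, with Apoe just above it.

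Genes that carry the receptor signal followed the same order. Of 20 signalling genes listed, 10 reached the filter, and all 10 had a difference above 0 (median 2.19), with 0 passing. The median was 3.01 for 6 members without the libraries numbered 3, 1.07 with limma-voom and 0.85 without dendritic replicate 2. Lck, the kinase that starts the signal, had 34, 24 and 43 reads against 0, 1 and 61 (log2 difference 2.79 ± 1.07, SE). Lat, the adaptor it acts on through Zap70, had 22, 18 and 27 against 0, 0 and 56. Coro1a, an actin regulator of leukocytes at large, had 138, 83 and 191 against 133, 1 and 262, so it had many reads in dendritic replicate 1 as well. Ptprcap, which binds the phosphatase CD45, had 32, 12 and 73 against 17, 0 and 68. Fyb, an adaptor also used by myeloid cells, had 15, 22 and 40 against 33, 2 and 61 (log2 difference 0.66 ± 0.75, SE), within its error.

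Costimulatory receptors of the TNF receptor family and Icos were far apart between the sorts in replicates 1 and 2. Tnfrsf4 (OX40) had 30, 51 and 19 reads in the CD4 T libraries against 0, 0 and 21, and its normalised reads did not overlap between the sorts (log2 difference 4.0 ± 1.35, SE). Tnfrsf9 (4-1BB) had 36, 69 and 30 against 0, 0 and 71 (3.89 ± 1.31), and Icos differed by 4.10 ± 1.25. Each had a limma adjusted p of 0.761. In these 3 genes CD4 T replicates 1 and 2 were high, and CD4 T replicate 3 was near dendritic replicate 3. Il2rb, the beta chain of the interleukin-2 receptor, had 36, 21 and 49 against 0, 0 and 80, and Cxcr6, a chemokine receptor of T cells in tissues, had 35, 17 and 47 against 0, 0 and 73. Of 39 helper and regulatory genes listed, 7 reached the filter. All 7 lay above 0 (median 3.50), and 6 of 6 did so without the libraries numbered 3 (median 5.10). The median was 1.74 with limma-voom and 2.46 without dendritic replicate 2. Some of the 7 reached the filter only through their CD4 T reads, such as Icos, with normalised means of 57.4 against 5.61. Below the filter not every member followed: Bcl6 had 0, 0 and 11 reads against 25, 2 and 8, and the normalised means of Maf were 7.93 against 7.81. In the pools of replicates 1 and 2, Icos was at least 79.4-fold higher in the CD4 T sort, Tnfrsf9 at least 77.9-fold and Tnfrsf4 at least 60.1-fold.

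Receptors of the same lists that did not reach the filter had few reads. Cd28 had 11, 9 and 13 reads against 0, 0 and 26. Ctla4, its inhibitory relative, had 5, 10 and 6 against 0, 0 and 13. Pdcd1, which encodes the target of the antibody, had 20, 2 and 19 against 0, 0 and 16; none of the 9 listed inhibitory receptors reached the filter. Foxp3, the factor of regulatory T cells, had 3, 4 and 5 against 3, 0 and 3, and the ratio of the pools was 5.19 (95% counting interval 1.19 to 31.1). Cd40lg, the helper ligand for Cd40, had 0, 0 and 0 reads against 0, 0 and 3.

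The ligands of these receptors were not separated at this depth. Icosl, the ligand of ICOS, had 1, 0 and 1 reads in the CD4 T libraries and 1, 0 and 1 in the dendritic ones. Tnfsf4, the OX40 ligand, had 0, 0 and 0 against 0, 0 and 1, and Cd80, a ligand of CD28 and CTLA-4, also had 0, 0 and 0 against 0, 0 and 1. Cd86, which binds the same receptors, had 4, 6 and 20 against 18, 3 and 21, and the ratio of the pools was 1.06 (95% counting interval 0.446 to 2.35). Cd274, which encodes the PD-1 ligand PD-L1, had 3, 3 and 4 against 20, 0 and 9 (ratio 0.668, interval 0.219 to 1.72). Cd40 had 1, 4 and 0 against 5, 1 and 5. Of 25 listed ligands, 2 reached the filter, Lgals9 and Cd48, at 0.79 ± 0.82 and 0.85 ± 1.35 (log2 difference, SE); Cd48 turned to -0.06 with limma-voom and -0.15 with quantile normalisation.

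Cytotoxic genes were present in the CD4 T sort too. Gzmb, the protease granzyme B, had 52, 31 and 157 reads against 2, 0 and 191 (log2 difference 3.65 ± 1.37, SE; limma adjusted p = 0.761). Nkg7, a granule membrane protein, had 37, 12 and 225 against 0, 0 and 285. Ctsw, a protease of killer lymphocytes, had 35, 2 and 69 against 0, 0 and 101. Ccl5, a chemokine of effector T cells, had 4, 3 and 170 against 7, 0 and 160, and its difference was 1.17 ± 1.58 (-0.14 with limma-voom). Gzma, Prf1 and the CD8 chains had 0 reads in CD4 T replicates 1 and 2. The list summed to 2990, 2340 and 5960 CPM in the CD4 T libraries and 215, 0 and 5900 CPM in the dendritic ones, highest in the libraries numbered 3. Of the 14 genes listed, 5 reached the filter, and all 5 lay above 0 (median 2.51), with 0 passing. The median was 4.74 for 2 members without the libraries numbered 3, 1.15 with limma-voom and 0.78 without dendritic replicate 2.

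MHC class II genes took a larger share of reads in dendritic replicate 1 than in CD4 T replicates 1 and 2, and dendritic replicate 2 lay between that CD4 T pair. The 14 listed genes summed to 2870, 10200 and 14700 CPM in the CD4 T libraries and to 17900, 7430 and 13400 CPM in the dendritic ones, so the groups overlapped. Of 8 tested members, 7 had a difference below 0 and 1, H2-DMa, above (median -0.72), and 0 passed. The median was -1.14 without the libraries numbered 3, -0.80 with limma-voom and -1.50 without dendritic replicate 2. The 2 class II chains with printed promoters below, H2-Aa and H2-Eb1, differed by -1.50 ± 1.00 and -1.54 ± 1.08 (log2, SE; limma adjusted p = 0.761 for both). H2-Eb1, the beta chain of H2-E (chr17:34305867-34316674, plus strand), had 7, 20 and 277 reads against 475, 11 and 268. Cd74, the invariant chain, had 11, 32 and 294 against 451, 8 and 286. Ctss, the protease that trims it, had 87, 170 and 710 against 1314, 31 and 838. In the pools of replicates 1 and 2 the dendritic level was 8.09-fold that of the CD4 T sort for H2-Eb1, 6.95-fold for H2-Aa and 4.80-fold for Cd74, and the CD4 T over dendritic ratio of H2-Aa was 0.144 (95% counting interval 0.0929 to 0.214). Ciita, the coactivator that class II promoters depend on, had 0, 0 and 4 reads against 5, 3 and 4.

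Class II genes are read from compact promoters in which an X box and a Y box bind a shared set of factors that recruits CIITA. The 150 bases before the annotated start of 3 marker genes are shown because H2-Aa and H2-Eb1 lay on the same side of the comparison and Cd3e on the other. Sequences are from RefSeq (GRCm38.p6, the build named mm10 in the processing notes), written 5′ to 3′ on the gene's strand. RefSeq's start of Cd3e lies a few bases inside the gene span given above, so the last bases of its window fall within that span. Capitals mark CCAAT on either strand (ATTGG where reversed), the core of the Y box, and TGACGTCA, the palindromic element of cyclic AMP response factors.
H2-Aa (chr17:34287824-34287973, minus strand): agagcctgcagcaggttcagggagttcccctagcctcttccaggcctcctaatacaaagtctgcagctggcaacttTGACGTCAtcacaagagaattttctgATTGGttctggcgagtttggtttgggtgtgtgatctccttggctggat
H2-Eb1 (chr17:34305717-34305866, plus strand): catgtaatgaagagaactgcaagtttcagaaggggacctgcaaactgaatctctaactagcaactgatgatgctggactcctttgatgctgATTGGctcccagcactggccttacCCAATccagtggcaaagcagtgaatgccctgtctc
Cd3e (chr9:45009612-45009761, minus strand): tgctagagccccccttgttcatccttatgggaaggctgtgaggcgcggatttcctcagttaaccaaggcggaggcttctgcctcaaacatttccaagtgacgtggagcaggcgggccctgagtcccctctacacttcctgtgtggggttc
The reversed CCAAT of H2-Aa begins 48 bases before the start and that of H2-Eb1 59 bases before it, with a forward copy at 35. TGACGTCA begins 74 bases before the start of H2-Aa. Neither motif was found in this window of Cd3e. Of 14 class II genes listed, 11 were matched and 8 of these held CCAAT on either strand in such a window. Counted by window, that is 8 of 13 (61.5%). In the T cell receptor complex 1 of 6 matched genes held it, which is 1 of 6 windows (16.7%). Over all 32851 windows of this length, 24.5% held CCAAT and 1.36% held TGACGTCA. A match describes letters, not binding.

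The monocyte and macrophage list took the largest share of reads in dendritic replicate 1, with the libraries numbered 3 close behind. Of 21 tested monocyte and macrophage genes, 15 had a difference below 0 and 6 above (median -0.74, against 0.48 over all genes tested), and 0 passed. The median was -0.51 for 18 members without the libraries numbered 3, -0.83 with limma-voom and -1.39 without dendritic replicate 2, and it turned to 0.33 without dendritic replicate 1. Lyz2 differed by -0.82 ± 1.14 (log2, SE) and C1qc, a complement chain made by macrophages, by -1.04 ± 0.91, from 27, 49 and 327 reads against 527, 23 and 417. Apoe, an apolipoprotein of tissue macrophages, had 163, 373 and 668 reads against 894, 32 and 960, which is 2739, 11972 and 4865 CPM against 4689, 2865 and 5671 CPM. CD4 T replicate 2 thus held the highest share of Apoe among the 6 libraries. Lgals3, a galectin abundant in macrophages, had 13, 8 and 344 reads against 646, 8 and 331, and was 14.0-fold higher in the dendritic pool of replicates 1 and 2. Cd14, a co-receptor for lipopolysaccharide, had 1, 4 and 27 against 84, 7 and 33, with a log2 difference of -2.05 ± 0.88 (SE). Ly6c2 stood on the other side, with 61, 6 and 176 reads against 1, 2 and 212; it marks monocytes and is also made by T cells, and its reads can be shared with the similar gene Ly6c1.

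Of 41 Fc receptor and innate sensing genes listed, 9 reached the filter, and these 9 had a difference below 0 (median -1.05), with 0 passing. The median was -1.45 for 7 members without the libraries numbered 3, -0.69 with limma-voom and -2.02 without dendritic replicate 2. Below the filter some members had more normalised reads in the CD4 T sort, such as Ncf4 (also chosen after its values were seen), a subunit of the phagocyte oxidase, with 9, 8 and 23 reads against 18, 1 and 22. Tyrobp, the DAP12 adaptor of myeloid and NK receptors, had 3, 6 and 92 reads against 237, 10 and 125 (log2 difference -2.22 ± 0.97, SE; unadjusted p = 0.0426 and adjusted p = 0.761 with limma). Fcer1g, the shared gamma chain of Fc receptors, had 5, 9 and 185 against 379, 8 and 220 (-1.89 ± 1.09). In the pools these genes were 12.3-fold and 12.4-fold higher in the dendritic sort. Fcgr3, a low-affinity IgG receptor, differed by -0.02 ± 0.93, and Fcgr4 by -0.21 ± 0.81; both turned above 0 when CD4 T replicate 1 (0.31 and 0.28) or dendritic replicate 1 (0.71 and 0.19) was left out, and Fcgr3 also without dendritic replicate 3 (0.11).

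Genes tied to the dendritic lineage were mixed, with 5 of 8 tested below 0 and 3 above (median -0.32). The 3 above were Id2, Traf1 and Bst2, and the 5 below were Cst3, Itgax, Irf8, Ppt1 and Spi1. The median was -0.50 for 6 members without the libraries numbered 3, -0.55 with limma-voom and -1.24 without dendritic replicate 2. Below the filter, 3 members were chosen because their reads lay mainly in dendritic replicate 1, so they are no support. Wdfy4 had 0, 0 and 10 against 46, 1 and 11, Cadm1 had 0, 0 and 17 against 39, 0 and 17, and Batf3 had 0, 0 and 1 against 12, 0 and 2. Other members below the filter did not follow. Irf4 had 4, 0 and 3 against 2, 0 and 2, Itgae had 0, 2 and 2 against 2, 0 and 0, and Tcf4 had 2, 0 and 4 against 5, 0 and 5. Cst3, a protease inhibitor abundant in dendritic cells and macrophages, had 15, 21 and 190 reads against 540, 9 and 252 (-1.30 ± 0.97). Itgax, which encodes CD11c, had 5, 0 and 29 against 52, 3 and 38 (-1.91 ± 1.19). Irf8, a transcription factor of cross-presenting dendritic cells, had 18, 9 and 86 against 149, 2 and 97 (-0.23 ± 0.93). Id2, which T cells use as well, had 78, 37 and 179 against 122, 3 and 229 (0.97 ± 0.90). Bst2 had 14, 14 and 65 against 121, 1 and 91, and its difference of 0.14 ± 0.97 turned to -0.56 with limma-voom. Among chemokines, 6 of 7 tested lay below 0 (median -0.68; -1.63 for 3 members without the libraries numbered 3, -0.93 with limma-voom and -1.58 without dendritic replicate 2). Cxcl2, which attracts neutrophils, had 12, 2 and 57 reads against 119, 19 and 74 (-2.04 ± 0.90), and Ccl4 had 0, 2 and 86 against 26, 4 and 114 (-1.96 ± 1.24, but 0.15 with limma-voom).

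**Figure D4:**
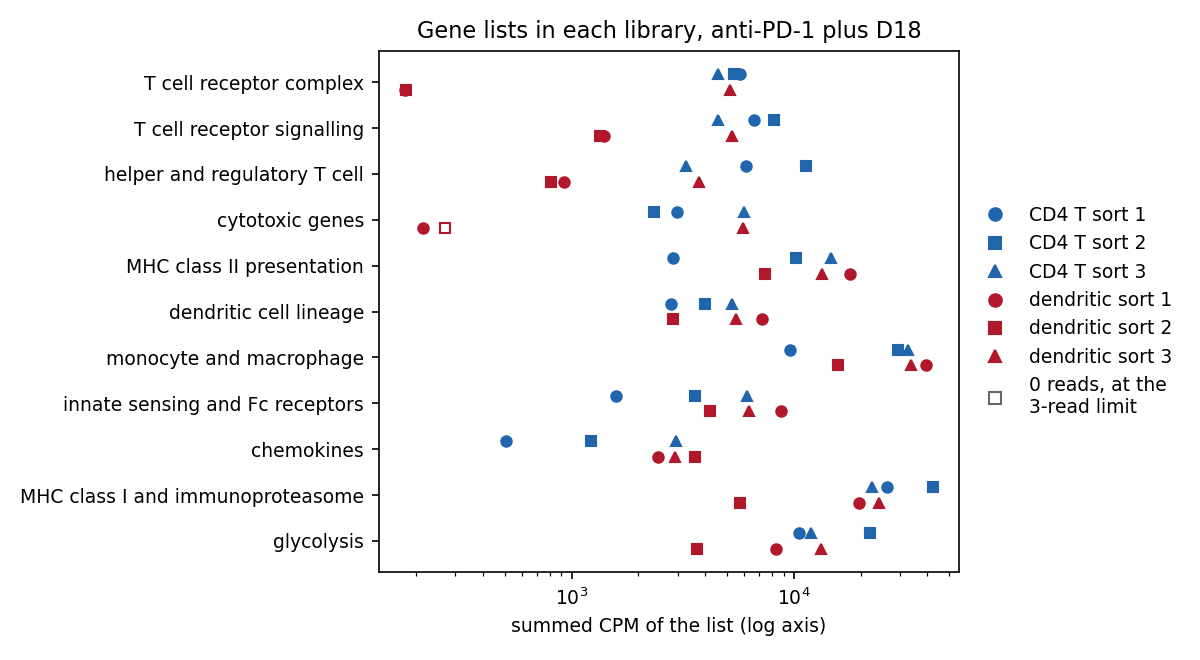
Summed CPM (log axis) of 11 gene lists in each library, blue for the CD4 T sort and red for the dendritic sort, with 1 symbol shape per replicate; the open square is a library without a read of the list, drawn at its 3-read limit. The T cell lists of dendritic replicates 1 and 2 lie apart from all CD4 T libraries, the myeloid and class II lists overlap between the sorts, and the triangles of both sorts nearly coincide.

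MHC class I genes, which present peptides to CD8 T cells and are expressed by nearly all cells, had more normalised reads in the CD4 T sort. All 14 tested genes of class I presentation and the immunoproteasome had a difference above 0 (median 1.11, against 0.48 over all genes tested), and 0 passed. The median was 1.56 without the libraries numbered 3 and 0.51 with limma-voom, but 0.21 without dendritic replicate 2. H2-K1 had 402, 350 and 565 reads against 477, 17 and 856 (1.30 ± 0.96), and H2-D1 had 288, 312 and 623 against 633, 8 and 753 (1.41 ± 1.06). B2m, the light chain of class I, had 566, 348 and 1339 against 2147, 22 and 1601; its difference of 0.73 ± 1.09 turned to -0.48 without dendritic replicate 2, and the CD4 T over dendritic ratio of the pools was 0.938 (95% counting interval 0.867 to 1.01). H2-Q7 differed by 1.52 ± 0.94; class I genes are near-identical in sequence, and the counting could split their reads. The list summed to 26200, 42300 and 22600 CPM against 19700, 5730 and 24200 CPM, lowest in the shallow dendritic replicate 2.

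General lists were tested for comparison, and 0 of their genes passed. All 12 tested glycolysis genes lay above 0 (median 0.92; 1.45 without the libraries numbered 3, 0.58 with limma-voom and 0.03 without dendritic replicate 2), with Ldha at 1.66 ± 1.14 and Gapdh at 0.91 ± 1.00 (log2, SE). Of 11 interferon-stimulated genes, 5 lay above 0 and 6 below. Their median was -0.10, and 0.03 without the libraries numbered 3, against 0.48 and 0.58 over all genes tested. It was -0.26 with limma-voom and -0.39 with quantile normalisation. Ifitm3 was at -1.23 ± 1.00 and Ifi47, an interferon-gamma-induced GTPase, at 1.46 ± 0.88. Of 72 ribosomal protein genes 35 lay above 0 and 37 below (median -0.02; -0.80 without dendritic replicate 2). All 11 mitochondrially encoded genes lay below 0 (median -1.06; -1.60 without the libraries numbered 3, -0.46 with limma-voom and -1.37 without dendritic replicate 2), and CD4 T replicate 2 held 2.85% mitochondrial reads. Of 9 immediate-early and heat-shock genes that mark handling of cells, 7 lay above 0 (median 0.70; 1.22 without the libraries numbered 3), but the median was 0.11 with limma-voom, 0.03 with quantile normalisation and -0.20 without dendritic replicate 2. Junb had 62, 44 and 75 reads against 35, 1 and 100 (1.97 ± 0.91), and Fos had 43, 77 and 57 against 76, 1 and 96.

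Genes picked by their p-value in this comparison, and so given as a description, included receptors and regulators shared by several leukocytes. Ms4a4b, which encodes a protein of the T cell surface, had 52, 48 and 164 reads against 0, 0 and 197 (4.20 ± 1.45). Ifngr1, a chain of the interferon-gamma receptor, had 49, 81 and 67 against 24, 3 and 76 (1.93 ± 0.85), and its normalised reads did not overlap between the sorts. Rac2, a GTPase of blood cells, had 93, 52 and 131 against 35, 1 and 193 (2.20 ± 1.02). On the dendritic side stood AA467197 (8, 1 and 73 against 249, 4 and 103; -2.12 ± 1.08) and Prdx1, a peroxidase (7, 13 and 138 against 250, 11 and 155; -1.51 ± 0.94). Rps29 had 95, 1 and 121 against 219, 81 and 137, and Rps28 had 40, 0 and 61 against 92, 28 and 64. That is 1597, 32.1 and 881 CPM against 1149, 7252 and 809 CPM for Rps29. For Rps28 it is 672, 0 and 444 CPM against 483, 2507 and 378 CPM. Both were lowest in CD4 T replicate 2 and highest in the shallow dendritic replicate 2. In replicates 1 and 3 the CD4 T library held the larger share of both. The remaining 3 were the predicted genes Gm10800, Gm10801 and Gm21738, whose sequence occurs in many copies in the genome, so that their counts are uncertain. Gm10800 had 139, 3 and 645 reads against 1741, 491 and 722 (-3.51 ± 1.46). With Gm10718 they took 0.281%, 0.0128% and 0.631% of the reads in the CD4 T libraries and 1.25%, 6.06% and 0.581% in the dendritic ones, most in the shallowest library.

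**Figure D5:**
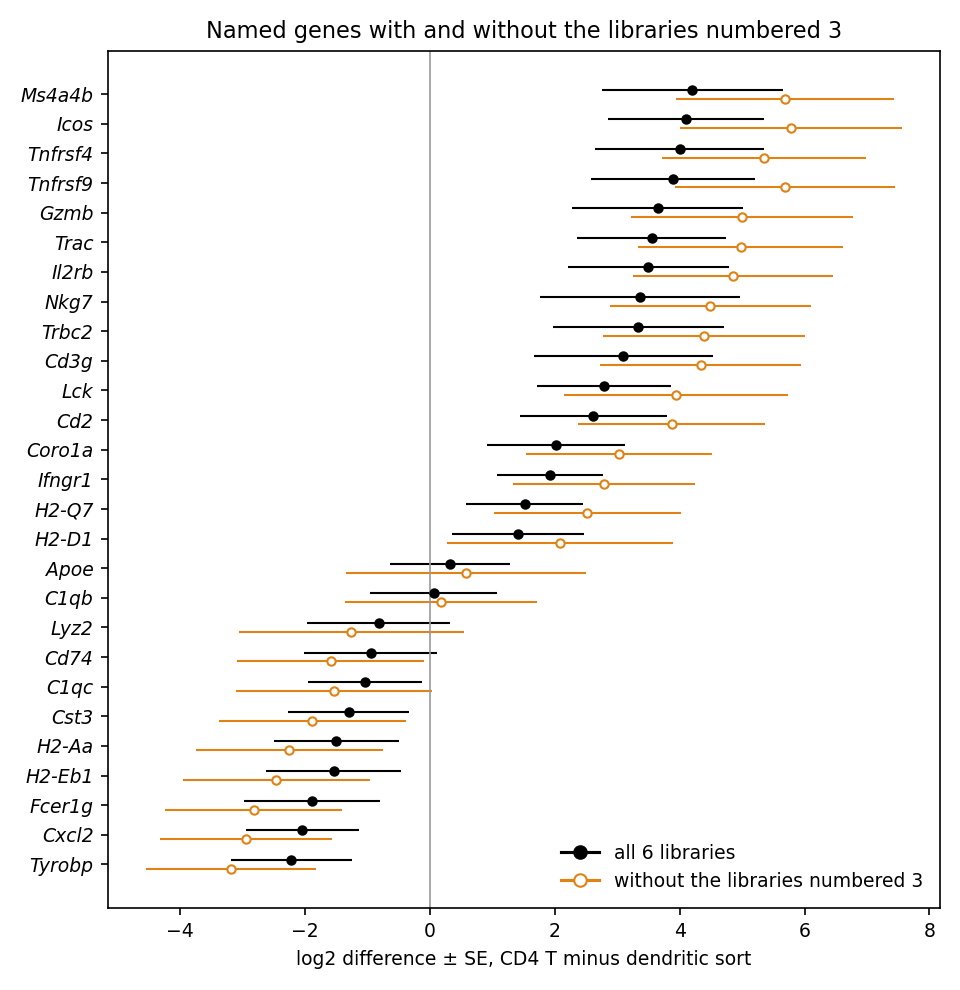
Log2 difference (CD4 T minus dendritic sort, horizontal axis) of 27 named genes with its standard error, in black for all 6 libraries and in orange for the 4 left without the libraries numbered 3. Estimates lie farther from 0 without those libraries, with wider errors; Ms4a4b goes from 4.20 to 5.69 and Tyrobp from -2.22 to -3.19.

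Leaving out libraries numbered 3 changed which genes passed. With both left out, limma-voom called Icos (6.93 ± 1.76, SE; adjusted p = 0.0169), Tnfrsf9 (6.86), Ms4a4b (6.84), Gimap4 (6.51), Tnfrsf4 (6.47) and Il2rb (5.99) at a higher level in the CD4 T sort, and Gm10718 (-5.40) at a higher level in the dendritic sort. All but Gm10718 had 0 reads in both dendritic libraries kept, so the size of their fitted differences depends on the small count added before logs were taken. Limma called none of the 7 on the same libraries. Without dendritic replicate 3 alone, 605 genes were tested and limma called 3, all at a higher level in the CD4 T sort: Ms4a4b (6.03 ± 0.87; adjusted p = 0.0062), Gzmb (5.36 ± 0.88; 0.0122) and Trac (4.83 ± 0.94; 0.0379). That setting kept CD4 T replicate 3, with 164, 157 and 71 reads of these genes. It dropped the nearly equal dendritic library, with 197, 191 and 96, so these calls depend on a 1-sided omission. With both left out, their limma adjusted p was 0.0867, 0.178 and 0.138.

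Reads of other cell types were unevenly spread. B cell genes, whose cells also carry MHC class II, summed to 168, 96.3 and 692 CPM in the CD4 T libraries and to 1280, 89.5 and 508 CPM in the dendritic ones, with Igkc, an immunoglobulin light chain, at 1, 0 and 21 against 65, 0 and 22. Ighm had 9, 3 and 43 against 67, 0 and 31. Klre1, an NK cell receptor, had 15, 0 and 13 against 5, 0 and 11. Neutrophil and mast cell genes had 1, 1 and 2 reads against 3, 17 and 8, and S100a8, a neutrophil gene, gave 11 of the 17 in dendritic replicate 2, where the list reached 1520 CPM, compared with 14.6 to 47.3 CPM in the other 5 libraries. Tumour and epithelial genes had 0, 0 and 8 against 8, 0 and 6, with Cdh1 at 0, 0 and 4 against 3, 0 and 2. Fibroblast and endothelial genes had 8, 2 and 7 against 23, 5 and 14, and Col1a1 had 0 reads in the CD4 T libraries. The part of these reads in the differences was not tested.

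The CD8 T sort with D18 gave the same genes in the other T cell sort. Of 942 genes tested over the 9 libraries, limma called 0 (0%), with 9 at an unadjusted p under 0.05, and limma-voom called 0 with 35. Cd8a had 58, 585 and 28 reads in the CD8 T libraries, whose totals were 55823, 266392 and 77993 reads, and its CD4 T minus CD8 T difference was -4.26 ± 1.65 (log2, SE; unadjusted p = 0.0252 and adjusted p = 1 with limma). Cd8b1 had 83, 388 and 33 reads there (-4.28 ± 1.64). Tnfrsf4 had 2, 16 and 5 reads in the CD8 T libraries against 30, 51 and 19 in the CD4 T ones (2.99 ± 1.23), and Icos had 14, 109 and 12 (1.39 ± 1.15). Trac, with 55, 339 and 34 reads, differed by 0.17 ± 1.14 between the T cell sorts. Apoe had 19, 38 and 444 reads in the CD8 T sort (3.04 ± 1.25), and Cfp, the complement regulator properdin made by myeloid cells, had 2, 0 and 13 against 9, 11 and 44 (2.45 ± 1.01). Both myeloid genes were thus low in CD8 T replicates 1 and 2, beside more reads in the CD4 T sort.

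Whether the difference between the sorts depended on D18 was tested as an interaction with the 6 libraries given anti-PD-1 alone. Of 960 genes tested, limma called 0 (0%), with 21 at an unadjusted p under 0.05 and a smallest adjusted p of 0.784, and limma-voom called 0 with 22. The libraries labelled CD4 T with anti-PD-1 alone held 0, 1 and 45 reads of Cd3e and 0, 2 and 48 of Icos, so those numbered 1 and 2 went against their label. Those labelled dendritic held 0, 0 and 34 of Cd3e and 0, 0 and 12 of Icos, so the library numbered 3 went against its label too. With anti-PD-1 alone, mitochondrial reads took 67.7% of CD4 T replicate 2 and 71.9% of dendritic replicate 2. No direction is drawn from the interaction. The 5 genes with the smallest p were Marcks (-3.05, log2), Ssr1 (3.18), Rpn2 (3.19), Stk17b (3.03) and Usp18 (3.24). Marcks encodes a membrane-bound substrate of protein kinase C, and Ssr1 and Rpn2 encode proteins of the endoplasmic reticulum. Stk17b encodes a kinase and Usp18 an interferon-induced protease. Marcks had 2, 1 and 8 reads in the CD4 T and 28, 3 and 18 in the dendritic libraries with D18, and 36, 46 and 15 against 12, 7 and 27 without it. With anti-PD-1 alone H2-Aa had 304, 677 and 160 reads in the libraries labelled CD4 T against 151, 689 and 269 in those labelled dendritic, and its interaction was -1.79 ± 1.34.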

How the data were processed

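Per the labels' protocols, sorted cells were lysed and their total RNA went through the Smart-Seq2 protocol, whose reads have neither strand nor molecular identifiers. Per the submitters' processing notes, the tools were STAR 2.4.0, HTSeq 0.6.1 and DESeq2, with mm10. The authors deposited 1 table per sort of log2 values on a variance-stabilised scale; no source names the transform. Whole reads were recovered from it as u = sinh(ln 2 × (value − table minimum) / 2) squared, divided by the smallest u above 0 of the column (100.0% of values whole within 0.001). Tables were joined on gene ID (46488 of 46983 IDs, 98.9%, matched a symbol) and the libraries of a comparison were normalised together by median-ratio size factors. Genes with a mean of at least 10 were tested with limma 3.58.1 (R 4.3.3; trend, robust) on log2(normalised reads + 1), so differences of low genes are understated, with Benjamini-Hochberg adjustment and a threshold of 0.05. No count model was used, because the deposited unit is log2. The fit was also run on simulated reads of independent libraries. These held no pair made to share a mixture across labels and no outlying library. That run therefore does not cover these features of the data. Figures were made with matplotlib 3.10.9.

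Members and gene lists were chosen with earlier results of these data known. Named genes are, per direction, the 10 with the smallest p whose higher sort averaged 50 or more normalised reads (none passed), the 4 tested members of each biology list and 2 of each list of other cells with the most reads, a fixed set of immune genes, and the 5 smallest p of each side comparison; other genes in the text were chosen after their values were seen. Addition of replicates 1 and 2, and limma-voom without the libraries numbered 3, were added after seeing the data; sensitivity to the other settings is given at the end.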

Additional observations from a re-analysis of the deposited data

How the results depend on the processing

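The count of genes passing the limma test between the CD4 T and the dendritic sort was 0 under all planned settings except the omission of single libraries, which gave 0 to 3 in all, 0 to 3 higher in the CD4 T sort and 0 in the dendritic sort; the 3 came without dendritic replicate 3. Limma-voom without both libraries numbered 3, added after seeing the data, gave 7 (6 higher in the CD4 T sort and 1 in the dendritic sort). The counts for the CD8 T comparison and the interaction were 0 under every setting run. Nothing in the labels says that the replicate numbers pair the samples. Deviations from the group means correlated at -0.24, -0.19 and -0.25 for the 3 numbers, which did not meet the condition set for pairing; since the libraries numbered 3 share nearly 1 mixture, this check cannot show that number to be untied. The replicate block gave 0 calls in all 3 comparisons, with 44 genes at an unadjusted p under 0.05 in the main one.

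Of 1158 log2 differences of the 65 tested named genes under the alternatives, 1091 kept the main sign. Those that did not belong to genes that passed under no setting, and the cause was not tested. With limma-voom they were Ccl5 (-0.14), Cd48 (-0.06), Bst2 (-0.56), C1qb (-0.11), Ccl12 (-0.93), Ccl4 (0.15), Ifi27l2a (0.07), Ighm (-0.23), Cd8a (1.07), Cd8b1 (0.60) and Cfp (-0.22). With quantile normalisation they were Cd48 (-0.15), Bst2 (-0.33), Ccl12 (-0.73), Ighm (-0.10) and Cfp (-0.12), and with a pseudocount of 10 Bst2 (-0.06), Ccl12 (-0.33) and Cd8a (0.02). The fit of 9 libraries gave C1qb -0.01. Without both libraries numbered 3 Ccl12 was at -0.36, and with limma-voom there Bst2 was at -0.27, Ccl12 at -1.56 and Cfp at -0.21. Without libraries under 20000 reads, which leaves out dendritic replicate 2, they were Ccl5 (-0.34), Lgals9 (-0.07), Cd48 (-0.65), Id2 (-0.01), Bst2 (-1.09), Apoe (-0.38), C1qb (-1.02), Ccl12 (-1.81), B2m (-0.48), Ighm (-1.0) and Cfp (-0.48). Over the omission of each library in turn the lowest and highest values were -0.38 and 0.77 for Apoe, -0.48 and 1.48 for B2m, -1.09 and 0.87 for Bst2, -1.02 and 0.70 for C1qb, -1.81 and 1.34 for Ccl12, -1.47 and 0.37 for Ccl3, -0.34 and 2.67 for Ccl5, -0.65 and 1.17 for Cd48, -1.68 and 0.57 for Cd8a and -2.34 and 0.18 for Cd8b1. For Cfp they were -0.48 and 0.94, for Ctss -1.21 and 0.15, for Fcgr3 -1.06 and 0.71, for Fcgr4 -0.67 and 0.28, for Id2 -0.01 and 1.5, for Ifi27l2a -0.46 and 0.46, for Ighm -1.0 and 1.19, for Irf8 -1.24 and 0.46 and for Lgals9 -0.07 and 1.34. Depth limits all of these: a gene without a read can stand at up to 269 CPM in dendritic replicate 2 and 96.3 CPM in CD4 T replicate 2.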
